A study of Cervus nippon with 12 samples.

Results

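The miRNAs described here are those that carry a cattle (bta-) name from miR-2282 to miR-2489, with any suffix. Of the 545 names listed for sika deer antler cells, 93 had such a name. Names that held the same reads in every library were counted once, which joined miR-2285da and miR-2285dd and left 92 members. Of the other names, 382 were other cattle names and 70 were named novel_ with a number. Small RNA was sequenced from wild type cells cultured from the antler tips of 3-year-old male sika deer, in 4 groups of 3 libraries. Reserve mesenchyme cells (RMCs), grown in DMEM with fetal bovine serum, were taken before induction at day 0 (CP_0), and after 7 days (CP_7) or 14 days (CP_14) of pellet culture in chondrogenic medium. The fourth group was cultured antler chondrocytes (CC), for which the labels name no induction. The study's methods state 3 biological replicates for each tissue type, but the labels do not say which libraries share an animal, so the p-values below measure the spread between these libraries.

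MiRNAs are short RNAs that guide Argonaute proteins to partly complementary sites in mRNAs and lower the stability or translation of those mRNAs. The names miR-2284 and miR-2285 belong to a large group of closely related miRNAs known from cattle and other ruminants, in which many gene copies with similar mature sequences have been named by letter suffixes. The other numbers in this range mostly name single miRNAs that were first listed in cattle, although miR-2355 also has a human name, so not every number here is limited to ruminants. The targets of most of these miRNAs are little known, and no role in cartilage is assumed for any of them here. No mature sequences were used here, so the grouping below goes by number and not by seed.

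The 92 members carried 28 different numbers, from miR-2284 to miR-2478. Of these members, 12 were named miR-2284, 54 were named miR-2285, and 26 had other numbers. All 92 had at least 1 read in at least 1 library, but most were read very few times. Over the 12 libraries, 49 members had fewer than 10 reads in all, 17 had a single read, and 22 were found in 1 library only. A read in every library was seen for 17 members. The limit of 10 or more reads in at least 3 libraries was passed by 19 members, 2 of miR-2284, 12 of miR-2285 and 5 of the other numbers, and 8 of these 19 passed 10 reads in all 12 libraries. The other 73 held 883 reads in all, with at most 18 reads in any library.

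The names just inside the limit were miR-2285cl, miR-2285bl and miR-2285co, with 10 reads in 3 libraries each, and miR-2310, with 10 reads in 4 libraries. Just outside, with 10 reads in 2 libraries each, were miR-2332, miR-2424, miR-2331-3p and miR-2285b. Several names are not separate measurements. MiR-2310 held the same 101 reads as miR-1814c, which has a number outside the range. MiR-2284y and miR-2285u held 444 and 429 reads that differed by 3.83%, miR-2285o and miR-2285av 298 and 271 reads that differed by 9.06%, and miR-2285bl and miR-2285co 66 and 63 reads that differed by 7.58%. These pairs were kept as separate names, but their levels cannot be told apart from shared reads. Among the members with fewer than 10 reads, 12 further pairs of names had identical reads in every library.

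The depth of the libraries, as reads on all listed miRNAs, ran from 2973442 to 4097304 in CP_0, from 539455 to 1032029 in CP_7, from 2791559 to 3864900 in CP_14 and from 9714090 to 10256572 in CC. A member with 0 reads could therefore be present at up to 0.292 RPM (reads per 1000000 of the depth; the value of 3 reads) in the deepest library and up to 5.56 RPM in the shallowest, for counting error only. One miRNA outside the range, miR-21-5p, took 60.3% ± 1.2 (SD, n = 3) of the depth at day 0, 23.2% ± 1.6 at day 7, 48.2% ± 5.0 at day 14 and 75.2% ± 2.0 in chondrocytes. The cartilage miRNA miR-140 was found in every library, and the cartilage list summed to between 9043 and 11415 RPM over all 12. The mesenchyme list (miR-143, miR-145, miR-199a and miR-214) summed to between 112680 and 288760 RPM in the RMC groups and to between 41886 and 57580 in CC. The list of blood miRNAs (miR-451, miR-144 and miR-486) summed to between 11.8 and 4192 RPM in CP_0, where replicate 3 stood apart with the highest value, to between 22.1 and 145 in CP_7, to between 3486 and 5167 in CP_14 and to between 1387 and 1460 in CC. The list of muscle miRNAs summed to between 4468 and 6616 RPM in CP_7 and to between 535 and 1747 in the other groups. The endothelial miR-126 reached 3083 RPM in CP_7, in replicate 3, and at most 83.6 outside CP_7. The leukocyte and epithelial lists stayed at or under 46.2 RPM in every library. These list sums, here and below, are RPM of the depth, without the TMM factors applied to the levels and fold changes. Those factors were 1.68 to 2.09 in CP_7 and 0.559 to 0.650 in CC. Divided by them, the cartilage sums would not be even, with CC above CP_7. The mesenchyme sums of CC would no longer all lie below those of CP_7. The part of other cell types in the results below was not tested.

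Together the members held 32954 reads over the 12 libraries, 0.0626% of all reads. Their share of a library's reads was lowest in chondrocytes and highest at day 7. It was 0.0630% ± 0.0050 (SD, n = 3) at day 0, 0.159% ± 0.014 at day 7, 0.0845% ± 0.0039 at day 14 and 0.0482% ± 0.0040 in chondrocytes. The libraries of CC ran from 0.0442% to 0.0522%, those of CP_0 from 0.0585% to 0.0684%, those of CP_14 from 0.0816% to 0.0889% and those of CP_7 from 0.150% to 0.175%, so that no group overlapped another. In such pooled cells, fewer cells of a type and less RNA in each cell cannot be told apart. The order of the groups was the reverse of their order in miR-21-5p. With the reads of miR-21-5p left out of the total, the members held 0.159% ± 0.013 of the remaining reads at day 0, 0.207% ± 0.014 at day 7, 0.164% ± 0.013 at day 14 and 0.194% ± 0.0035 in chondrocytes. On this base the libraries of CP_0 and CP_14 overlapped, and CC came to lie above both of them instead of below. With library sizes scaled by TMM (composition factors that make most miRNAs comparable between libraries), the shares came to 0.0718% ± 0.0030 at day 0, 0.0832% ± 0.0062 at day 7, 0.0851% ± 0.0033 at day 14 and 0.0799% ± 0.00075 in chondrocytes, and only CP_0 was separate, below every other library. The summed share thus gave a different order of the groups under each of these 3 denominators.

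**Figure D1:**
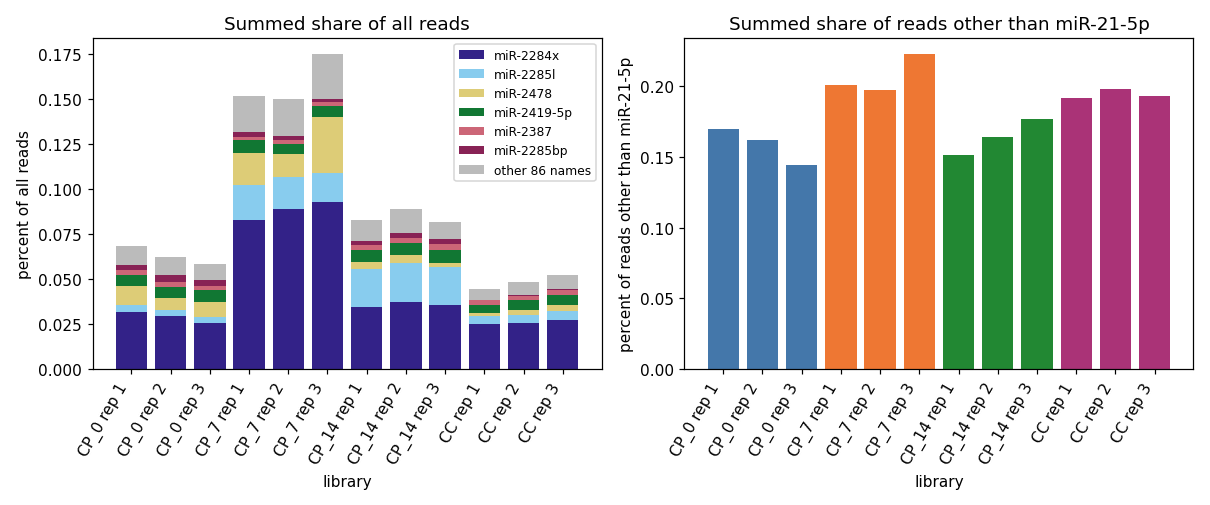
Share of reads held by the 92 members in each of the 12 libraries, as percent of all reads (left, stacked by member) and as percent of the reads other than miR-21-5p (right, coloured by group). On the left the CP_7 libraries reach 0.150% to 0.175% and the CC libraries stay at 0.0442% to 0.0522%, whereas on the right the CC libraries lie above those of CP_0 and CP_14.

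The number of members with at least 1 read was lowest in the shallowest group and highest in the deepest. It was 41.3 ± 3.8 (SD, n = 3) at day 0, 38.3 ± 4.5 at day 7, 44.3 ± 4.0 at day 14 and 50.7 ± 1.2 in chondrocytes. In any library of a group, 57 members were found at day 0, 55 at day 7, 61 at day 14 and 69 in chondrocytes, and 43 members were found in every library of at least 1 group. At an equal depth of 539455 reads, the depth of the shallowest library, the expected number of members with a read was 23.9 ± 1.2 at day 0, 34.95 ± 1.6 at day 7, 24.8 ± 0.74 at day 14 and 20.8 ± 1.2 in chondrocytes. CP_7 thus went from the fewest detected members to the most, and CC from the most to the fewest. The drawn reads include miR-21-5p, which took 23.2% of the depth in CP_7 and 75.2% in CC. An equal depth therefore leaves fewer reads of other miRNAs in CC than in CP_7. The part of this in the order was not tested. In percent of the 92 members, the values at equal depth were 26.0, 38.0, 26.9 and 22.6 in the same order. The other cattle names moved the same way, from 64.6% in CP_0 to 71.6% in CP_7, 67.4% in CP_14 and 59.8% in CC, so the order was not particular to the members. In every library a smaller share of the members than of the other names was found.

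**Figure D2:**
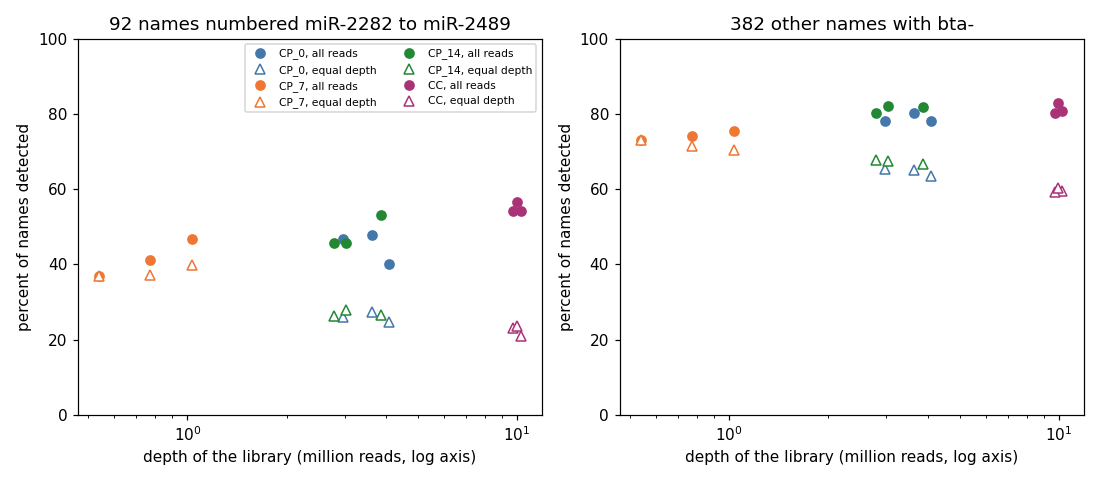
Percent of names with at least 1 read against the depth of the library (log axis), for the 92 members (left) and the 382 other cattle names (right), with filled circles for all reads and open triangles for the expected value at 539455 reads. At equal depth the CP_7 libraries lie highest and the CC libraries lowest in both panels.

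A few members held nearly all of the reads. MiR-2284x alone held 49.6% of all member reads, the 2 most read members held 62.5%, the 5 most read held 83.6%, and the 19 members past the limit held 97.3%. By number, miR-2284 held 16879 reads (51.2%), miR-2285 8338 (25.3%) and the other numbers 7737 (23.5%). Within a library this make-up does not depend on miR-21-5p or on the scaling. The miR-2285 names held 21.4% ± 1.3 (SD, n = 3) of the member reads in CP_0, 21.0% ± 1.9 in CP_7 and 20.9% ± 0.55 in CC, but 38.2% ± 0.46 in CP_14. The libraries of CP_14, from 37.7% to 38.6%, were all above those of the other groups, with at most 23.0%. A single name accounted for most of that difference, since miR-2285l held 25.4% ± 0.77 of the member reads in CP_14 against 5.67% ± 0.22 in CP_0, 11.3% ± 1.7 in CP_7 and 9.36% ± 0.44 in CC. The other numbers held 31.0% ± 2.9 of the member reads at day 0, 22.0% ± 3.8 at day 7, 17.7% ± 0.28 at day 14 and 23.8% ± 2.3 in chondrocytes.

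The levels below are RPM values normalized with TMM over the 12 libraries, given for replicates 1, 2 and 3 in that order. They compare libraries for 1 miRNA, and levels of different miRNAs can also differ through cloning and mapping. MiR-2284x, the most read member, was at 341, 350 and 297 RPM in CP_0, at 419, 529 and 443 in CP_7, at 338, 363 and 378 in CP_14 and at 450, 428 and 415 in CC. It thus stayed within a narrow range, with CP_7 and CC above CP_0 and CP_14 in every library. MiR-2284y, the other miR-2284 name past the limit, had group means from 8.94 RPM in CC to 14.8 in CP_14.

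MiR-2285l, the most read miR-2285 name, was at 42.4, 39.8 and 39.8 RPM in CP_0, at 97.2, 106 and 78.9 in CP_7, at 205, 215 and 229 in CP_14 and at 76.2, 71.3 and 76.9 in CC. The groups did not overlap, and the order was CP_0, CC, CP_7, CP_14, with CC and CP_7 nearest to each other. The highest group mean was 5.33 times the lowest.

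MiR-2285bp was at 27.9, 46.1 and 37.2 RPM in CP_0, at 13.1, 10.9 and 8.86 in CP_7, at 17.9, 23.9 and 26.0 in CP_14 and at 5.06, 4.81 and 4.16 in CC. All 3 chondrocyte libraries were below every RMC library, and all 3 libraries of CP_0 were above every other library. The highest group mean was 7.93 times the lowest. CC, CP_7 and CP_14 stood in the same order as for miR-2285l, while CP_0 was lowest for miR-2285l and highest for miR-2285bp. MiR-2285f was at 14.1, 14.1 and 13.8 RPM in CP_0, at 9.85, 7.48 and 4.43 in CP_7, at 13.7, 12.6 and 14.1 in CP_14 and at 27.9, 19.8 and 23.0 in CC. CP_0 and CP_14 overlapped for miR-2285f, CP_7 was lowest and CC was highest. MiR-2285bc was at 6.16, 6.92 and 10.3 RPM in CP_0, at 7.88, 2.30 and 3.54 in CP_7, at 2.45, 1.61 and 2.49 in CP_14 and at 8.89, 10.8 and 12.2 in CC. CP_14 was lowest in the mean and overlapped CP_7, and CC was highest in the mean and overlapped CP_0.

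The other numbers held 3 well read members. MiR-2478 was at 116, 77.6 and 98.9 RPM in CP_0, at 91.9, 74.8 and 147 in CP_7, at 38.2, 40.0 and 24.9 in CP_14 and at 31.7, 47.3 and 57.1 in CC. The libraries of CP_0 and CP_7 overlapped each other and lay above all those of CP_14 and CC. MiR-2419-5p was at 64.8, 68.3 and 76.4 RPM in CP_0, at 36.8, 34.5 and 31.0 in CP_7, at 64.5, 63.9 and 78.3 in CP_14 and at 81.6, 93.7 and 86.3 in CC. MiR-2387 was at 30.1, 38.6 and 27.6 RPM in CP_0, at 7.88, 13.2 and 9.75 in CP_7, at 31.2, 31.3 and 35.4 in CP_14 and at 42.4, 41.3 and 42.4 in CC. Both of these had their 3 lowest libraries in CP_7, their 3 highest in CC, and overlapping libraries in CP_0 and CP_14.

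The 10 remaining members past the limit had group means of at most 14.97 RPM. Over all 19, the highest group was CC for 8, CP_14 for 5, CP_0 for 3 and CP_7 for 3, and the lowest group was CP_7 for 7, CC for 7, CP_14 for 3 and CP_0 for 2. These counts take both names of each nearly shared pair. MiR-2284y, miR-2285u, miR-2285o and miR-2285av were all highest in CP_14 and lowest in CC. The pair miR-2285bl and miR-2285co was highest in CC and lowest in CP_7. MiR-2285cl stood out among the thinly read names, with 2 reads in all of CP_0, 23 at day 7, 31 at day 14 and 3 in CC.

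**Figure D3:**
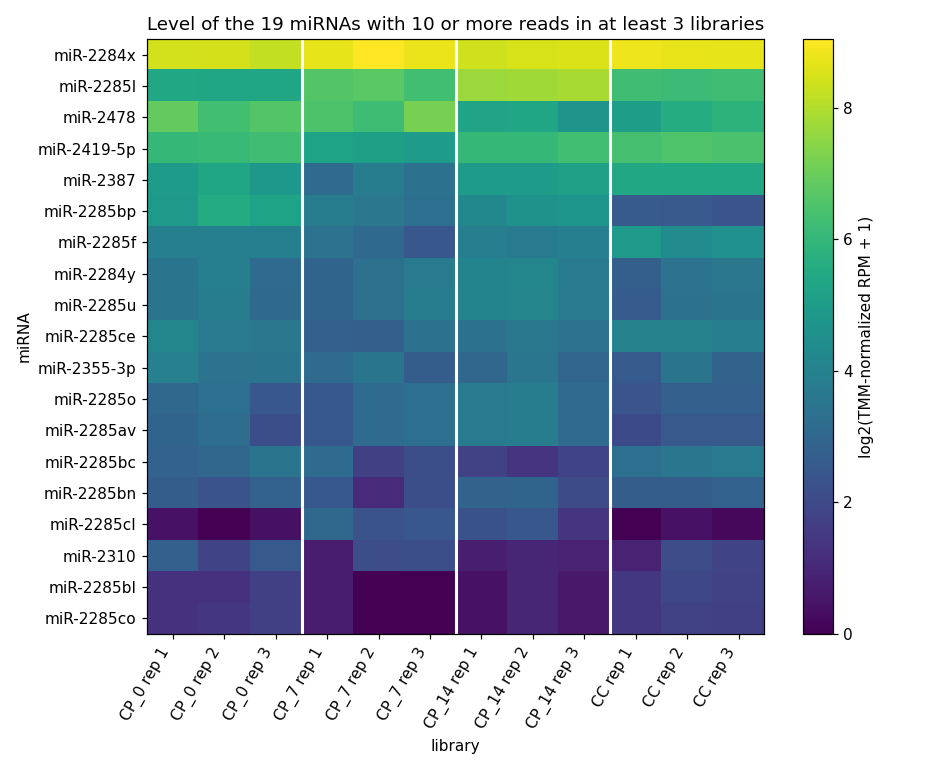
Level of the 19 members past the limit (rows, most read first) in the 12 libraries (columns), as log2(TMM-normalized RPM + 1). The row of miR-2285l is brightest in the CP_14 libraries, the row of miR-2285bp is darkest in the CC libraries and the rows of miR-2419-5p and miR-2387 are darkest in the CP_7 libraries.

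Ratios between members of the same library show the unequal changes without any scaling between libraries. MiR-2285l had 0.124 ± 0.010 (SD, n = 3) reads for each read of miR-2284x at day 0, 0.204 ± 0.027 at day 7, 0.602 ± 0.0071 at day 14 and 0.174 ± 0.010 in chondrocytes. MiR-2285bp had 0.113 ± 0.027 at day 0, 0.0240 ± 0.0064 at day 7, 0.0625 ± 0.0085 at day 14 and 0.0108 ± 0.00070 in chondrocytes. Neither ratio overlapped between CP_14 and any other group. MiR-2478 had 0.298 ± 0.067 reads for each of miR-2284x at day 0, 0.231 ± 0.096 at day 7, 0.0964 ± 0.026 at day 14 and 0.106 ± 0.034 in chondrocytes. MiR-2419-5p had 0.214 ± 0.037 at day 0, 0.0744 ± 0.012 at day 7, 0.191 ± 0.015 at day 14 and 0.203 ± 0.019 in chondrocytes, and only CP_7 lay apart. A ratio within a library shows that the 2 members did not change alike, not which of them changed.

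**Figure D4:**
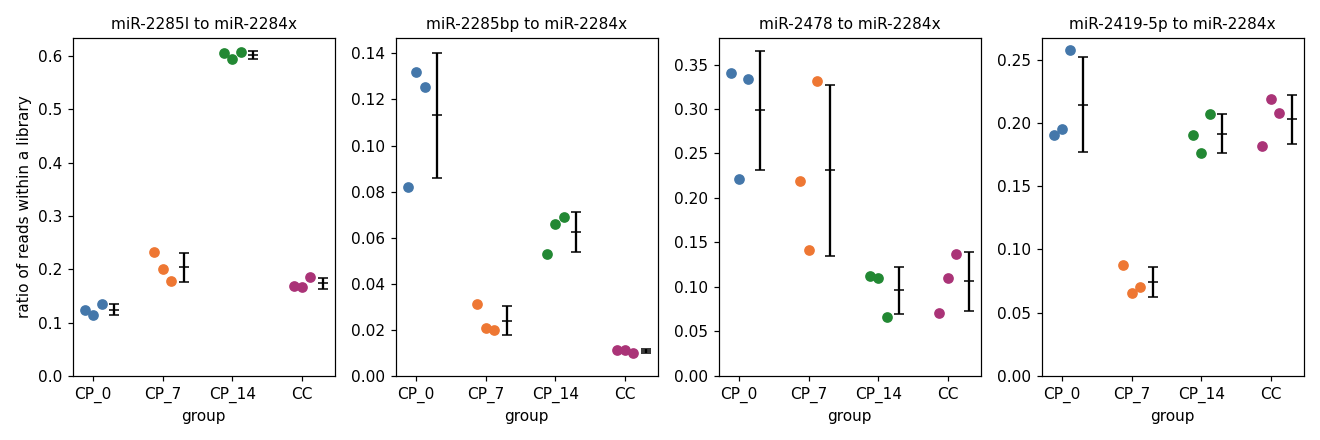
Reads of miR-2285l, miR-2285bp, miR-2478 and miR-2419-5p per read of miR-2284x within each library, by group, with points for the 3 libraries and bars for the mean and SD. The ratio of miR-2285l lies at 0.594 to 0.607 in CP_14 and at or under 0.232 in all other libraries, and that of miR-2419-5p lies at or under 0.0878 in CP_7 and at or over 0.176 elsewhere.

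Each pair of groups was compared with limma on its own 6 libraries, on log2(TMM-normalized RPM + 1), and a miRNA was called at a Benjamini-Hochberg adjusted p below 0.05 over all miRNAs tested. The filter on low counts let 20 members into at least 1 comparison and 14 of the 19 members past the limit into all 4, while 72 members were never tested. The tested members include miR-2332, miR-2424 and miR-2285b, which miss the limit. MiR-2285bl and miR-2285co, which pass it, were not tested. A member that entered a comparison through the group where it was high had to differ, so the counts below describe the tested members and not the family. The comparisons share libraries (those of CP_7, of CP_14 and of CP_0 each enter more than 1), so their values are given side by side and not as separate evidence.

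After 7 days of induction, 9 of 19 tested members were called against day 0. Of these, 5 rose (miR-2424, miR-2332, miR-2285cl, miR-2285l and miR-2284x) and 4 fell (miR-2285bp, miR-2387, miR-2419-5p and miR-2285f). Among all 246 miRNAs tested, 35.8% were called higher and 28% lower, so the shares of the members were no larger. The libraries of both groups did not overlap for 11 members, against 67.9% of all miRNAs tested. The median log2 fold change of the members was -0.13, and that of all miRNAs tested was 0.075.

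In log2 fold change, miR-2285l rose by 1.24 (SE 0.16, adjusted p = 0.00038 by limma) and miR-2284x by 0.54 (SE 0.11, adjusted p = 0.0045 by limma), where the latter came to -0.61 with no normalization at all. MiR-2285bp fell by 1.63 (SE 0.29, adjusted p = 0.0019 by limma) and miR-2387 fell by 1.54 (SE 0.26, adjusted p = 0.0015 by limma). MiR-2419-5p fell by 0.97 (SE 0.17, adjusted p = 0.0016 by limma), and with library size only it came to 0.088. The call of miR-2285f (-0.89, SE 0.34, adjusted p = 0.0497 by limma) held only without replicate 1 of CP_7 among the 6 fits that left out a library, with values from -1.33 to -0.69 over these fits, and it came to 0.095 with library size only. That of miR-2284x held in 4 of 6, and was lost at 0.37 without replicate 1 of CP_7 and at 0.26 without replicate 2. The call of miR-2284x was also lost with upper-quartile factors in place of TMM, at 0.19, and with miR-21-5p left out, at 0.35.

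The 3 largest rises were on few reads. These 3 members passed the filter only through CP_7, where they were high, so they had to differ and their calls are not separate support. MiR-2424 was read 2, 0 and 2 times in the libraries of CP_0 and 10, 18 and 7 times in those of the shallower CP_7, a share of reads 40.0 times as high in CP_7 (95% exact interval 14.3 to 155, counting error only). MiR-2332 had 0, 3 and 5 reads in CP_0 and 12, 15 and 9 in CP_7, a share 20.6 times as high (9.41 to 51.3). MiR-2285cl went from 2 reads to 23, a share 52.6 times as high (13.0 to 460). These ratios are of shares of all reads, which rise in CP_7 for most miRNAs when library size alone is used, with 152 of 246 called higher and 20 lower. On the normalized scale the log2 fold changes were 2.85 for miR-2424 (SE 0.43, adjusted p = 0.00087 by limma), 2.66 for miR-2332 (SE 0.48, adjusted p = 0.0020 by limma) and 2.60 for miR-2285cl (SE 0.44, adjusted p = 0.0016 by limma), values that understate the change of miRNAs with few reads and depend on the added 1 RPM. MiR-2285cl passed the filter in only 2 of the 6 fits without a library. At the other end, miR-2285bl and miR-2285co had 16 and 17 reads in CP_0 and 1 read each in CP_7, with ratios of 0.286 (0.00682 to 1.84) and 0.269 (0.00644 to 1.72), so that a difference was not detectable at this depth.

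The muscle list and miR-126 were higher in CP_7 than in CP_0 and the epithelial list was lower, without overlap, and their part in these differences was not tested. Without replicate 3 of CP_0, 7 of 15 tested members were called, and without replicate 3 of CP_7 9 of 20. Scaled by library size only, 8 members were called higher and 0 lower, and with no normalization 3 higher and 12 lower, while the median of all miRNAs tested moved to 1.12 and to -1.04.

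From day 7 to day 14, 8 of 17 tested members were called. Of these, 4 rose (miR-2387, miR-2285l, miR-2285bp and miR-2419-5p) and 4 fell (miR-2332, miR-2424, miR-2478 and miR-2284x). Of all 246 miRNAs tested, 24.4% were called higher and 28.5% lower. Both groups did not overlap for 9 members, against 62.2% of all miRNAs tested. The median was 0.54 for the members and -0.0089 for all miRNAs tested.

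MiR-2387 rose by 1.55 in log2 fold change (SE 0.23, adjusted p = 0.0011 by limma) and miR-2285l by 1.13 (SE 0.14, adjusted p = 0.00046 by limma). MiR-2419-5p and miR-2285bp both rose by 0.92, with SE 0.18 and 0.27 and adjusted p = 0.0044 and 0.026 by limma. Of these 4, miR-2285l had also risen from day 0 to day 7, whereas the other 3 had fallen. MiR-2478 fell by 1.63 (SE 0.32, adjusted p = 0.0042 by limma) and miR-2284x fell by 0.44 (SE 0.098, adjusted p = 0.0079 by limma), where the latter came to 0.78 with no normalization. MiR-2332, with 6 reads in CP_14 against 36 in the shallower CP_7, had a share of reads 0.0403 times as high (95% exact interval 0.0139 to 0.0966) and a log2 fold change of -2.89 (SE 0.42, adjusted p = 0.0011 by limma). MiR-2424 fell by 1.89 (SE 0.35, adjusted p = 0.0037 by limma), with 3, 8 and 5 reads in the libraries of CP_14. Both miR-2332 and miR-2424 passed the filter here only through CP_7, where they were high.

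The blood list was higher in CP_14 than in CP_7, the muscle list and miR-126 were lower, and no library overlapped between the groups for any of them. The mesenchyme, leukocyte and epithelial lists were also higher in CP_14 without overlap, and the part of these lists in the differences was not tested. The call of miR-2284x was lost without replicate 2 of CP_7, at -0.26, and without replicate 3, at -0.39, and that of miR-2285bp without replicate 2 of CP_14, at 0.87, and replicate 3, at 0.80. Scaled by library size only, 1 member was called higher and 5 lower, and with no normalization 13 higher and 1 lower, while the median of all miRNAs tested moved to -0.84 and to 1.19.

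Between chondrocytes and day 14 RMCs, 13 of 17 tested members were called. Of these, 6 were higher in CC (miR-2285bc, miR-2285f, miR-2285ce, miR-2387, miR-2419-5p and miR-2284x) and 7 were lower (miR-2285bp, miR-2285cl, miR-2285l, miR-2285av, miR-2285o, miR-2285u and miR-2284y). The 7 lower names hold 2 pairs with nearly the same reads, and with those pairs joined 11 of 15 members were called. The share of tested members called, 76.5%, was near the 74.6% of all 276 miRNAs tested. Both shares were the highest of the 4 comparisons. Of all 276 miRNAs, 37.7% were called higher and 37% lower, and both groups did not overlap for 13 members, against 78.6% of all. The median was 0.088 for the members and 0.086 for all miRNAs tested. Among the 11 tested miR-2285 names, 3 were higher and 6 lower, and neither of the 2 called members with another number was lower.

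MiR-2285l was lower by a log2 fold change of -1.52 (SE 0.087, adjusted p = 4.0e-07 by limma) and miR-2285bp of -1.99 (SE 0.20, adjusted p = 1.3e-05 by limma). MiR-2285cl had 31 reads in CP_14 and 3 in the deeper CC, a share of reads 0.0313 times as high (95% exact interval 0.00612 to 0.1003) and a log2 fold change of -1.62 (SE 0.30, adjusted p = 0.00084 by limma). It passed the filter here only through CP_14, where it was high. MiR-2285bc was higher by 1.77 (SE 0.22, adjusted p = 6.6e-05 by limma) and miR-2285f by 0.73 (SE 0.17, adjusted p = 0.0033 by limma). The 4 other rises were smaller. MiR-2285ce was higher by 0.49 (SE 0.17, adjusted p = 0.025 by limma), and it came to -0.16 with library size only. The values of miR-2387, miR-2419-5p and miR-2284x were 0.35, 0.33 and 0.25, and came to -0.34, -0.37 and -0.46 with library size only. The nearly shared pairs were lower by log2 fold changes of -1.17 (miR-2285av) and -0.92 (miR-2285o), and of -0.78 (miR-2285u) and -0.69 (miR-2284y), where the last 2 came to 0.048 and 0.15 with no normalization.

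In RPM of the depth, the mesenchyme, blood, leukocyte, muscle and epithelial lists and miR-126 were all lower in CC than in CP_14, without overlap. Their part in these differences was not tested. Several of these calls rested on single libraries. Those of miR-2284y and miR-2285u were lost without replicate 1 of CP_14 (-0.64 and -0.73), replicate 2 of CP_14 (-0.60 and -0.69) or replicate 1 of CC (-0.43 and -0.51). The call of miR-2285ce held only without replicate 2 of CP_14 or replicate 3 of CC, that of miR-2387 only without replicate 3 of CP_14, and that of miR-2419-5p only without replicate 3 of CP_14 or replicate 1 of CC, with log2 fold changes of 0.43 to 0.55, 0.31 to 0.39 and 0.27 to 0.41 over the 6 fits that left out a library. Without replicate 3 of CP_14, 25 members passed the filter and 20 were called. Scaled by library size only, 1 member was called higher and 10 lower, and with no normalization 9 higher and 3 lower, while the median of all miRNAs tested moved to -0.54 and to 1.01.

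Over the whole 14 days of induction, 4 of 15 tested members were called, of which 1 was higher in CP_14 (miR-2285l) and 3 were lower (miR-2478, miR-2285bc and miR-2285bp). Of all 250 miRNAs tested, 24.8% were called higher and 21.2% lower. Both groups did not overlap for 4 members, against 56.4% of all. The median was 0.027 for the members and 0.010 for all miRNAs tested. MiR-2285l was higher by a log2 fold change of 2.40 (SE 0.090, adjusted p = 1.1e-06 by limma), which is larger than 96.0% of the log2 fold changes of all miRNAs tested.

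MiR-2478 was lower by -1.47 (SE 0.22, adjusted p = 0.0015 by limma), miR-2285bc by -1.41 (SE 0.28, adjusted p = 0.0054 by limma) and miR-2285bp by -0.66 (SE 0.22, adjusted p = 0.046 by limma). In this comparison miR-2285bc passed the filter only through CP_0, where it was high, so it had to differ and its call is not separate support. The call of miR-2285bp was lost without replicate 2 (-0.49) or 3 (-0.65) of CP_0 and without replicate 1 (-0.54) or 2 (-0.75) of CP_14. MiR-2419-5p, miR-2387 and miR-2285f, which were called lower at day 7, had values of -0.0044 (SE 0.12), 0.053 (SE 0.16) and -0.039 (SE 0.15) and were not called. MiR-2284x was at 0.15 (SE 0.094, adjusted p = 0.22 by limma). The muscle list summed to between 535 and 681 RPM in CP_0 and to between 1679 and 1747 in CP_14, and the mesenchyme list to between 139730 and 165230 and to between 214490 and 288760, without overlap for either. The blood list was higher in CP_14 than in 2 of the 3 libraries of CP_0. The part of these lists in the differences was not tested. Without replicate 3 of CP_0, 4 of 16 tested members were called.

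**Figure D5:**
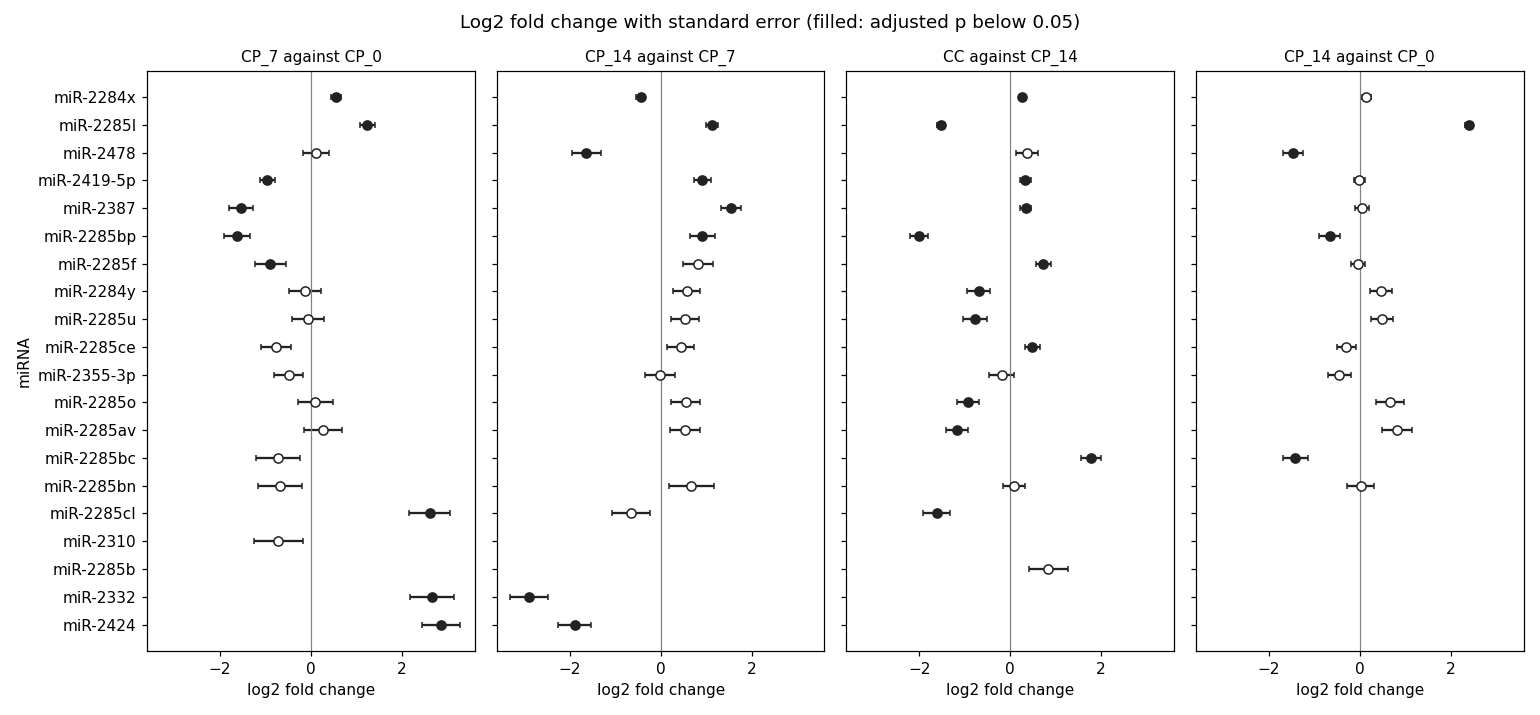
Log2 fold change (limma, on log2(TMM-normalized RPM + 1)) with its standard error for each tested member in the 4 comparisons, filled where the adjusted p is below 0.05 and left out where a member did not pass the filter. MiR-2285l is at 1.24, 1.13, -1.52 and 2.40 from left to right, and miR-2387 at -1.54, 1.55, 0.35 and 0.053.

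Across the 4 comparisons, miR-2285l and miR-2285bp were called in all 4, and miR-2284x, miR-2387 and miR-2419-5p in 3. MiR-2355-3p and miR-2285bn were tested in all 4 and called in none, with log2 fold changes from -0.49 to -0.015 and from -0.68 to 0.68. Of the 34 calls, 24 held in every fit without a library that tested the member, and no call changed sign in such a fit. For miR-2424, miR-2332 and miR-2285cl, which passed the filter only through the group where they were high, a repeated call is no support. The call of miR-2285bc for CP_14 against CP_0 is no support either, since it passed the filter there only through CP_0.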

How the data were processed

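Small RNA was sequenced from 12 libraries in 4 groups of 3 (CP_0, CP_7, CP_14, CC), grouped by their titles. A NEBNext small RNA kit was used. The submitters' processing notes name CASAVA, bcl2fastq 1.8.4 and Bowtie, with no role. Not given in the sources used here are the trimming, the counter, the genome build and the version of the miRNA database. For each library the authors deposited RPM values under the header TPM: reads per 1000000 of the summed reads of every listed miRNA, with no length correction. The values were whole multiples of 1 read for 100% of names within 0.01 read, so reads were recovered. One read was worth 0.0975 to 1.85 RPM. Reads have no molecular identifiers, and intervals cover counting error only. The chi-square statistic of library pairs of a group never fell under 4.92 per degree of freedom, and each library was counted separately.

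Names whose reads were within 1% of each other in every library (at least 10 reads in all) were counted once. Detection at equal depth was the expected number of names with a read in 539455 reads drawn without replacement. Tests used limma 3.58.1 (two-sided, prior variance following mean level) on log2 of TMM-normalized RPM plus 1, on the 6 libraries of each comparison, after edgeR's filterByExpr (edgeR 4.0.16, R 4.3.3; minimum count 10, minimum total 15), with Benjamini-Hochberg adjustment over all miRNAs tested and a threshold of 0.05. The procedure was tested on simulated data. Few-read ratios have exact conditional binomial 95% intervals of summed reads.

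Named were members with 10 or more reads in at least 3 libraries, in depth the 6 most abundant and the 3 largest rises and falls called in each comparison. Members, lists and rules were chosen with earlier results of these data known. Alternatives were other scalings, pseudocounts of 0.5 and 5, other filters, at least 2-fold, a single fit of all 12 libraries, a replicate block, edgeR and DESeq2 1.42.0 on recovered reads, and leaving out each library. Joining names with nearly the same reads (within 10%) and leaving out miR-21-5p were added after seeing the data.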

Additional observations from a re-analysis of the deposited data

How the results depend on the processing

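With no normalization, 15 members were called at day 7 against day 0 and 14 at day 14 against day 7. With at least 2-fold, 5 were called for CP_14 against CP_7 and 5 for CC against CP_14. With no filter, 22 of 80 tested members were called for CC against CP_14. Leaving out each library gave 7 to 9, 7 to 11, 10 to 20 and 4 to 6 called members for CP_7 against CP_0, for CP_14 against CP_7, then for CC against CP_14, and last for CP_14 against CP_0. With edgeR these counts were 8, 8, 13 and 4 and with DESeq2 8, 8, 9 and 4. Deviations of same-numbered libraries had correlations from -0.35 to 0.11, and those of differently numbered libraries from -0.27 to 0.39. With 3 libraries in a group, these values cannot tell whether same-numbered libraries share an animal. With the replicate number as a block, 8, 7, 9 and 6 members were called.

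For members called in the main fit or under the setting itself, directions changed under 2 settings, and the cause was not tested. Members called in neither also changed direction, under these and other settings. For CP_7 against CP_0, miR-2478 was at 0.11 in the main fit and at -0.23 with upper-quartile factors in place of TMM. With library size only, the log2 fold changes of miR-2285f and miR-2419-5p for CP_7 against CP_0 were 0.095 and 0.088, and those of miR-2284x, miR-2285ce, miR-2387 and miR-2419-5p for CC against CP_14 were -0.46, -0.16, -0.34 and -0.37. With no normalization, miR-2284x and miR-2478 were at -0.61 and -1.04 for CP_7 against CP_0, miR-2284x and miR-2355-3p at 0.78 and 1.12 for CP_14 against CP_7, and miR-2284y and miR-2285u at 0.15 and 0.048 for CC against CP_14.

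The summed share without miR-21-5p in the total was 0.159%, 0.207%, 0.164% and 0.194% in CP_0, CP_7, CP_14 and CC, and without miR-2284x among the members 0.0341%, 0.0709%, 0.0489% and 0.0223%. With TMM-scaled library sizes it was 0.0718% in CP_0, 0.0832% in CP_7 and 0.0799% in CC. Members with at least 3 reads numbered 26.7, 23, 26.3 and 33, and with at least 10 reads 16, 13.3, 15 and 19, in the same order. At equal depth there were 23.9 in CP_0, 24.8 in CP_14 and 20.8 in CC. The depth of CP_7 limits every member with few reads.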
